A study of Mus musculus with 6 samples.

Results

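The genes described here are 8 markers of terminally differentiated tissues, which were read from the peak lists of H3K4me3 and ASH2L in mouse embryonic stem (ES) cells. They are Alb and Apoa1 of the liver, Ins2 of the endocrine pancreas, Myh6 of the heart, Ckm of skeletal muscle, Gfap of astrocytes, Cd3e of T cells and Sftpc of the lung. They were chosen by name, as 8 of the 21951 protein-coding genes of GENCODE vM21, and all peaks overlapping each gene body or the 5 kb upstream of it were collected on mm10. The experiment was CUT&RUN, in which a nuclease is brought by an antibody to the chromatin of opened cells and the DNA it releases is sequenced. It comprised 6 samples in 3 groups with 2 replicates each, namely anti-HA in wild-type parental E14 cells, anti-HA in HA-Ash2L E14 cells and anti-H3K4me3 in HA-Ash2L E14 cells. All groups were cultured with serum and LIF and received doxycycline for 48 h, which induces the HA-Ash2L transgene. The labels call the HA-Ash2L genotype a knock-in, whereas the methods of the study describe a transposon vector, selection and picked colonies, and how many colonies were used is not given in the sources used here. The replicates were merged before the peaks were called, and parental cells enter no value below. No value per sample can therefore be given, no difference was tested, and every count below is a description of 2 merged libraries.

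Trimethylation of histone H3 at lysine 4 marks the start sites of active genes and of many genes that are poised for activation, and in ES cells it covers nearly all promoters that are rich in CpG dinucleotides. ASH2L is a core subunit of the MLL and SET1 methyltransferase complexes that place this mark. Genes of terminal differentiation code for the bulk products of a tissue, such as plasma proteins, hormones or contractile filaments. They are known as inactive in ES cells, and many have promoters with few CpG dinucleotides. Expression was not measured in these samples, so that the inactive state of the 8 genes is background and not a result.

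An H3K4me3 peak lay at the promoter of 3 of the 8 genes, Ckm, Gfap and Cd3e, against 68.4% of all protein-coding genes. A promoter was counted when a peak overlapped by at least 1 bp a window that began 1000 bp before any annotated transcript start and ended 100 bp after it. With a wider window of 2500 bp on both sides of the starts, Apoa1, Myh6 and Sftpc were counted as well, which made 6 of 8 genes against 71.9% of all genes, so that the members no longer lay below. With only the peaks at or above the median fold enrichment of the list, Cd3e remained as 1 of 8, against 36.4%. The peak of Ckm lay at the start of a noncoding transcript far upstream of its mRNA start. When only the starts of curated RefSeq mRNAs, named curated starts below, were used, Gfap and Cd3e remained as 2 of 8 genes, against 67.9% of the 21000 genes with such a start. Within the gene body or the 5 kb upstream, 6 of 8 genes had an H3K4me3 peak, a share near the 76.2% of all protein-coding genes. With only the peaks at or above the median fold enrichment the count stayed at 6 of 8, against 50.5% of all genes. Alb and Ins2 had none. ASH2L peaks were found at 0 of the 8 promoters, at 0 of the 8 curated starts and in 0 of the 8 gene regions. Over all genes the shares with an ASH2L peak were 7.69%, 7.19% and 10.5%, which are low enough that the counts of 0 do not set the 8 genes apart.

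The promoters that the lists were read against are shown as the 150 bases before the curated start, 5′ to 3′ on the strand of the gene, with CpG dinucleotides in capitals. They are from the RefSeq promoter table of GRCm38.p6, the mm10 build, in which 6 of the 8 genes were matched and Ins2 and Sftpc were not. They are shown because the share of promoters with an H3K4me3 peak differed widely with CpG content, as given after the sequences. Gfap (chr11:102897201-102897350, minus strand) and Cd3e (chr9:45009612-45009761, minus strand) had an H3K4me3 peak at the curated start. Alb (chr5:90460720-90460869, plus strand), Apoa1 (chr9:46228480-46228629, plus strand), Myh6 (chr14:54966608-54966757, minus strand) and Ckm (chr7:19410944-19411093, plus strand) had none there.
Gfap: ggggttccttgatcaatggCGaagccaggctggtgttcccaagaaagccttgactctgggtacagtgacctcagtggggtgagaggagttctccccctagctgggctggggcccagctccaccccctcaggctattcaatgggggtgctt
Cd3e: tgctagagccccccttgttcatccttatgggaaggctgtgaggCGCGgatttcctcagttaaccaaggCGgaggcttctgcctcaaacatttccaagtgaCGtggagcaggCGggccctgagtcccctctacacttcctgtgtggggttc
Alb: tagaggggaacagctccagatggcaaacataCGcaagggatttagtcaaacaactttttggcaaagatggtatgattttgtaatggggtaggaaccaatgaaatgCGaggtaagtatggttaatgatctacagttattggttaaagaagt
Apoa1: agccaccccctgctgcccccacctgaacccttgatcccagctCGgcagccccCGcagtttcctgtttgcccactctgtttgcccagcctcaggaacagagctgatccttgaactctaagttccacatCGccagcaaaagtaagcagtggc
Myh6: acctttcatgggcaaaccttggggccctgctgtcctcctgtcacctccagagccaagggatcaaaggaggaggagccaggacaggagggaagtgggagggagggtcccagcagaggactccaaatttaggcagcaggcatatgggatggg
Ckm: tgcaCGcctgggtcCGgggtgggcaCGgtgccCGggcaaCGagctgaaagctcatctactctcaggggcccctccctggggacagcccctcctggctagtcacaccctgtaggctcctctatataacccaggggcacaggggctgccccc

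The printed stretch of Myh6 contained 0 CpG dinucleotides, that of Gfap 1, that of Alb 2, that of Apoa1 3 and those of Ckm and Cd3e 5 each. Presence of a peak did not follow this count over the printed stretch, since Ckm without a peak at this start and Cd3e with one had the same number. Over the wider window of 500 bp on both sides of the start, the ratio of observed to expected CpG was highest for Gfap at 0.422, followed by Alb at 0.310 and Cd3e at 0.291. It was 0.166 for Apoa1, 0.151 for Ckm and 0.133 for Myh6. Gfap, with a peak, had the highest ratio, Alb without a peak lay above Cd3e with one, and the 3 lowest genes had no peak at the curated start.

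None of the 6 matched promoters was CpG-rich, defined as a GC content of at least 50% and a ratio of at least 0.6 in this window. Of 16853 promoters in the table, 48.1% were CpG-rich, and 7694 of these 8103 had an H3K4me3 peak. Of the other 8750 promoters 38.4% had a peak, and of the 6 genes 2 had one, which is near the share of promoters of the same class. Among promoters with a ratio from 0.1 to 0.2, where Apoa1, Ckm and Myh6 lie, 8.34% had a peak. The share was 24.8% from 0.2 to 0.3, the range of Cd3e, 52.8% from 0.3 to 0.4, the range of Alb, and 80.1% from 0.4 to 0.5, the range of Gfap. Alb was set apart from the others by its base composition, with a GC content of 37.8% that lay at the 5.30th percentile of all promoters, while the other 5 genes lay between 52.5% and 56.8%. Promoters are not independent samples, and the shares describe 1 merged library.

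**Figure D1:**
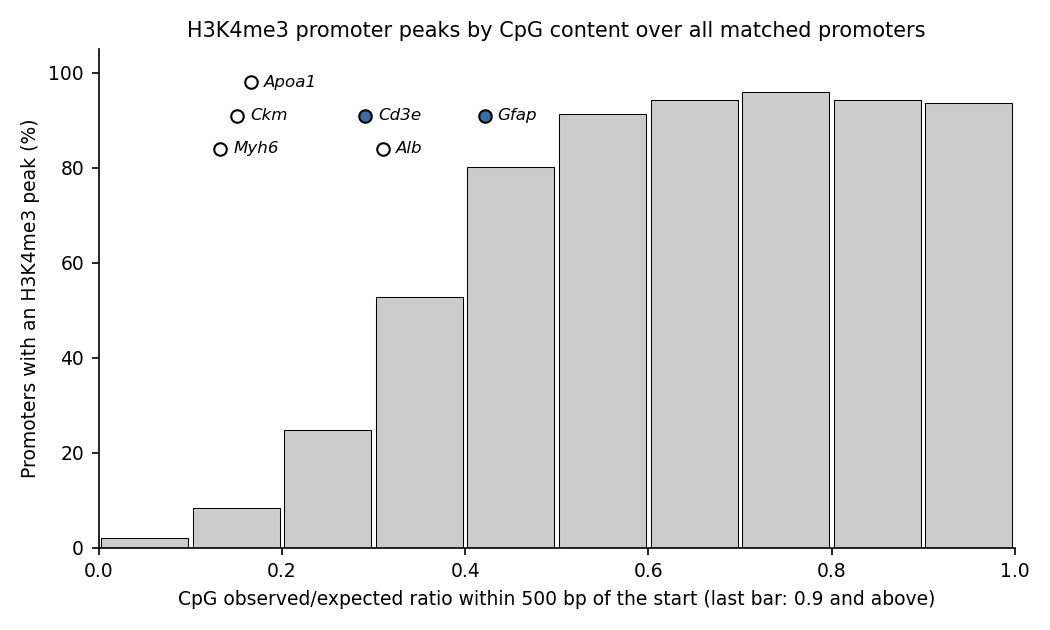
Share of promoters with an H3K4me3 peak (vertical axis, %) by the CpG observed/expected ratio within 500 bp of the start (horizontal axis), as grey bars over the 16853 promoters of the RefSeq table. Circles place 6 of the 8 genes on the horizontal axis only, filled where a peak lay at the promoter, and their height has no meaning; the 6 genes lie between 0.133 and 0.422, where the bars climb from 8.34% to 80.1%.

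Motif matches were counted in the same promoters. The TATA box letters TATAAA, searched on both strands from 250 bp before to 50 bp after the start, were found in Myh6 and in 0 of the other 5 genes, against 13.2% of all promoters in the table. On the sense strand in the last 50 bases before the start they were found in 0 of the 6 genes, against 3.58% of all promoters. Only this exact run was searched. Related runs, such as tatataa in the printed stretch of Ckm, were not counted, so the count does not show that a TATA box is absent. The E-box letters CANNTG, which read the same on both strands, were found in 5 of 6 genes, all but Gfap, against 68.5% of all promoters. E-boxes are bound by factors such as those of the MyoD family, and Ckm, a known target of that family, held 1 match in this window, as Myh6 did, while Alb, Apoa1 and Cd3e held 2 each. A match is only a run of letters, and no binding was measured.

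Gfap, the intermediate filament protein of astrocytes, had 3 H3K4me3 peaks in its region. The peak at the curated start (chr11:102896490-102897572) was 1083 bp long and contained 145 tags, the mapped reads that the peak caller counted without redundant ones, with a fold enrichment of 5.17 over the background modelled by the peak caller. It spanned both coding starts of the gene and reached 372 bp upstream and 710 bp downstream of the curated one. A second peak (chr11:102900603-102901488) at the start of a noncoding transcript upstream had fewer tags, at 48, and a p-value score of 54.6, close to the cutoff of 50, while its fold enrichment of 5.41 was similar. The third (chr11:102892601-102894380) lay in the gene body and was the strongest of the 3, with 207 tags, a fold enrichment of 8.23 and its summit in a coding exon 4069 bp downstream of the curated start. Gfap thus had a peak at its start, but the peak with the most tags lay inside the gene.

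Cd3e codes for the epsilon chain of the CD3 complex, the signalling part of the T cell receptor. It had a single peak (chr9:45008913-45010286), 1374 bp long, with 137 tags, a fold enrichment of 9.96 and a score of 395, and the summit lay 118 bp upstream of the curated start. The peak reached 675 bp to the upstream and 698 bp to the downstream side. It also held the start of the gene model Gm48720, so the 2 genes share it and it cannot be assigned to either. Its fold enrichment was above 89.0% of the peaks of the list, while its tag count was above 56.2% of them.

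Ckm, the muscle creatine kinase that buffers ATP in muscle fibres, had the most peaks of the 8 genes with 5, and none lay at the curated start. The nearest (chr7:19414594-19415829) began 3500 bp downstream of it, with 96 tags and a fold enrichment of 5.26. The peak that counted at the promoter under any annotated start (chr7:19403040-19404804) had 277 tags and a fold enrichment of 5.01. It ended 6290 bp upstream of the curated start, and it held both the start of a noncoding Ckm transcript and a start of the neighbouring gene Klc3, which codes for a kinesin light chain. A further peak upstream (chr7:19398911-19400585, 297 tags) held a start of Klc3 only. Between these and the mRNA start lay a peak in an intron of the noncoding transcript (chr7:19405296-19406399, 113 tags), which had the lowest fold enrichment of the 12 peaks at 4.63. The last (chr7:19420739-19421934), at the 3′ end of the gene, had 207 tags and a fold enrichment of 9.57, and its summit lay 12 bp from the start of the antisense gene A930016O22Rik. Of the 5 peaks, 3 thus held starts of other genes, and the call of Ckm depends on which starts are used.

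Apoa1, the main protein of high-density lipoprotein, had the peak with the highest tag count and the highest fold enrichment among the 12. The peak (chr9:46229047-46231282) was 2236 bp long and contained 304 tags, with a fold enrichment of 10.6, above 91.7% of the list. It began 417 bp downstream of the curated start and covered most of the short gene, with its summit in a coding exon 1492 bp downstream. Apoa1 was therefore not counted as having a promoter peak, although its peak lay the closest to a start among the genes that were not counted. The peak held no annotated start of any gene.

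Sftpc codes for surfactant protein C of the alveolar type II cells. Its peak (chr14:70519153-70521377, 249 tags, fold enrichment 9.86, score 671) lay at the 3′ end of the gene, 2704 bp downstream of the curated start, with the summit beyond the end of the gene. It held a start of the neighbour Bmp1, a secreted metalloprotease, and the summit lay 301 bp from that start. Myh6, the alpha heavy chain of cardiac myosin, had a small peak in an intron (chr14:54956259-54957057), 799 bp long with 49 tags, of which the fold enrichment was 9.88. It lay 9550 bp downstream of the curated start and 850 bp from the start of a noncoding Myh6 transcript. Neither gene had a peak nearer to its mRNA start.

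**Figure D2:**
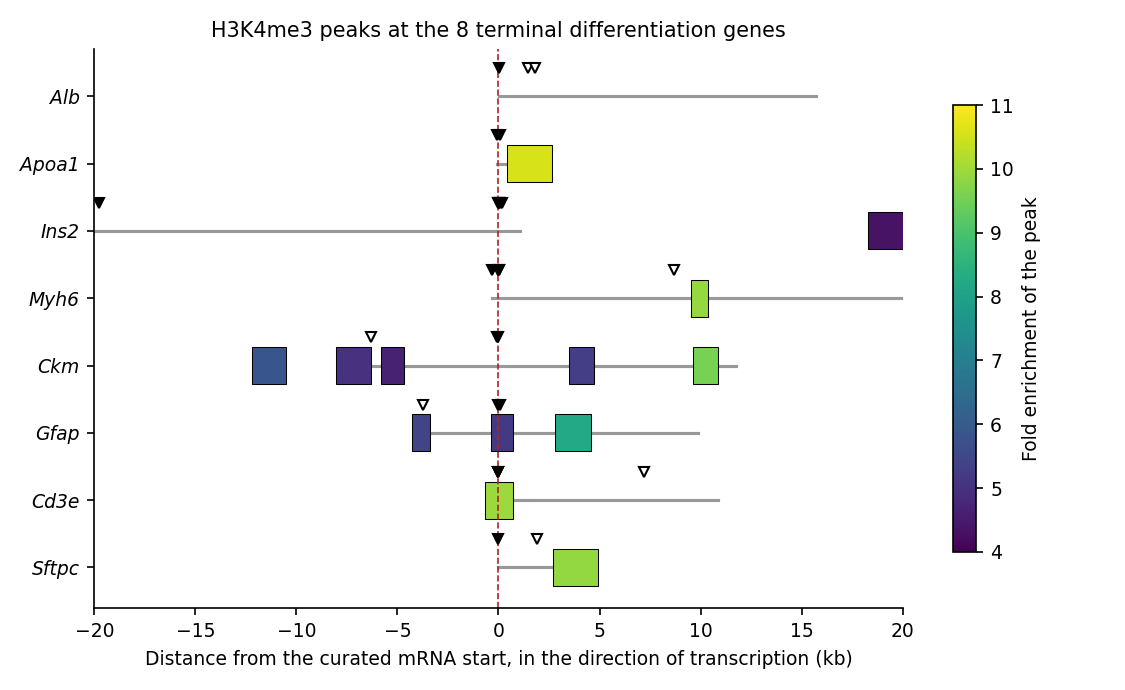
H3K4me3 peaks (boxes, coloured by fold enrichment) by distance from the curated mRNA start in the direction of transcription (kb), 1 row per gene. Grey lines are the GENCODE gene records, and triangles are annotated starts of coding (black) and noncoding (white) transcripts; only Gfap and Cd3e have a box across 0, the nearest peak of Ins2 is cut at the right edge, and that of Alb lies outside the range.

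Alb and Ins2, which had no peak in their regions, differed in how far the next one lay. Alb codes for serum albumin, the most abundant plasma protein, and its nearest H3K4me3 peak (chr5:90507007-90508162) began 46137 bp downstream of the curated start. That peak, with 113 tags and a fold enrichment of 15.97, lay within Afp, which codes for the fetal counterpart alpha-fetoprotein, and 16270 bp from the first start of Afp, at a later annotated start of that gene. Of the 21000 genes, 11.96% had their curated start farther from a peak than Alb. Ins2 codes for insulin and is the mouse counterpart of the human gene. Its nearest peak (chr7:142658031-142661446) lay 18280 bp downstream of the curated start, had 394 tags and a fold enrichment of 4.35, and had its summit nearest to a start of Igf2, a growth factor gene downstream of it. The record of Ins2 in GENCODE includes long transcripts that begin far upstream, and from the first of these starts the same peak was 81935 bp away.

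Over the 8 genes, the distance from the curated start to the nearest H3K4me3 peak was 0 for Gfap and Cd3e, 417 bp for Apoa1, 2704 bp for Sftpc, 3500 bp for Ckm, 9550 bp for Myh6, 18280 bp for Ins2 and 46137 bp for Alb. The median was 3102 bp, against 0 bp over the 21000 genes, for which the upper quartile was 6826 bp. Myh6, Ins2 and Alb lay beyond it. For ASH2L the distances ran from 23254 bp for Ckm to 27161821 bp for Sftpc. The median was 651900 bp, against 212686 bp over the 21000 genes, and it lay below their upper quartile of 685778 bp. The ASH2L peak nearest to Ckm (chr7:19434348-19434963) had 25 tags and a fold enrichment of 5.31, and among the gene starts it lay nearest to one of Mark4. Myh6 and Sftpc are on chromosome 14 and shared the same nearest ASH2L peak, 11604347 bp from Myh6.

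**Figure D3:**
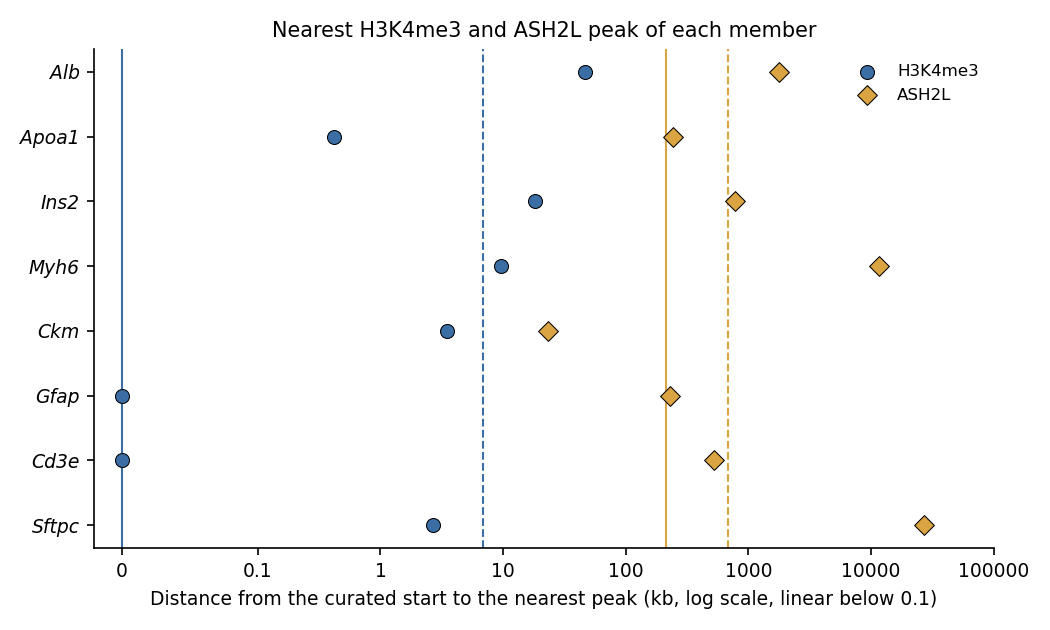
Distance from the curated start to the nearest peak in kb (logarithmic axis, linear below 0.1) for H3K4me3 (circles) and ASH2L (diamonds), 1 row per gene. Solid and dashed vertical lines are the median and upper quartile over 21000 genes for H3K4me3 (blue) and ASH2L (ochre); only Alb, Ins2 and Myh6 lie beyond the dashed H3K4me3 line.

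The 12 H3K4me3 peaks of the 6 genes contained between 48 and 304 tags, with lengths from 799 to 2236 bp and fold enrichments from 4.63 to 10.6. Of these peaks 9 were at or above the list's median of 113 tags and 6 at or above its median fold enrichment of 6.46. They held fewer tags than a usual promoter peak, for which the median over 15016 genes was 469 tags and the lower quartile 304 tags. The peaks counted at the promoters of the 3 genes had 277 tags for Ckm, 145 tags for Gfap and 137 tags for Cd3e, each below that quartile. Tag count and fold enrichment ranked the peaks differently, since Myh6 was among the lowest in tags and among the highest in fold enrichment. Fold enrichment is relative to a background taken from the same library around the peak and fell in the list among the peaks with the most tags, with a median of 7.00 for those with 100 to 300 tags and 3.65 for those with at least 1000. Of the 12 peaks, 5 held no annotated start of any gene.

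**Figure D4:**
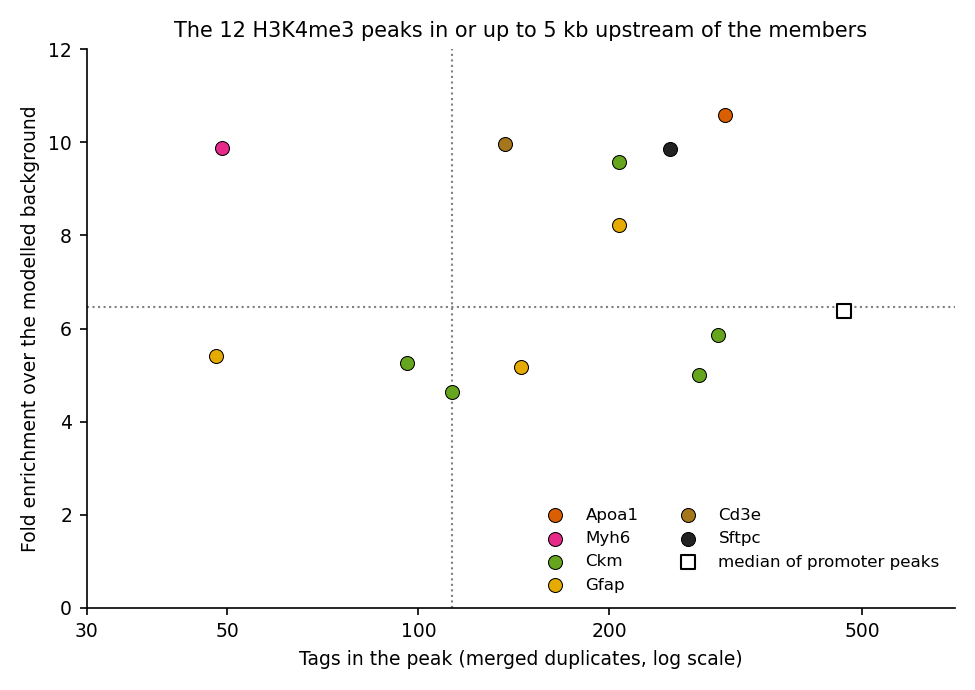
Tags (horizontal, logarithmic axis) and fold enrichment (vertical axis) of the 12 H3K4me3 peaks, coloured by gene; dotted lines are the medians of the list and the open square is the median of promoter peaks over 15016 genes. All 12 peaks lie to the left of the square.

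Of the 16 nearest protein-coding neighbours, 1 on each side of every gene, 10 had an H3K4me3 promoter peak and 0 had an ASH2L promoter peak. These counts are near the 68.4% and 7.69% of all protein-coding genes and do not set the neighbours apart. Sik3 beside Apoa1 had 581 tags, Kif18b beside Gfap 691, Mpzl2 beside Cd3e 614 and Mark4 beside Ckm 648, all above the median promoter. The neighbour Gm9958 of Alb had 892 tags, while Afp had 113 on its other side. Klc3 beside Ckm had 297 tags, Bmp1 beside Sftpc 249, Lgi3 on the other side of Sftpc 141 and Cmtm5 beside Myh6 101. The 6 without a peak were Apoc3 beside Apoa1, Gm49394 and Th beside Ins2, Gm17428 beside Myh6, Fam187a beside Gfap and Cd3d beside Cd3e. The peaks of Klc3 and Bmp1 are ones that were also collected in the regions of Ckm and Sftpc. For Ins2 neither nearest neighbour by start site had a promoter peak, and Igf2, near whose start the closest peak lay, was farther away than the gene model Gm49394 on that side.

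Of 46 other differentiation genes of the same tissues, 22 had an H3K4me3 promoter peak at any annotated start and 17 at the curated start, again below the 68.4% and 67.9% of all genes. By tissue, a peak was present at 5 of 6 astrocyte genes (Aldh1l1, Slc1a2, Slc1a3, Gjb6 and Aqp4, not S100b), 4 of 7 T cell genes (Lck, Cd2, Cd247 and Cd5), 4 of 7 heart genes (Tnnt2, Tnni3, Myl2 and Myl7), 3 of 6 muscle genes (Mylpf, Tnni2 and Mb), 3 of 6 lung genes (Napsa, Sftpb and Sftpd), 2 of 8 liver genes (Apob and Afp) and 1 of 6 genes of the endocrine pancreas (Sst). Liver and pancreas, the tissues of Alb, Apoa1 and Ins2, thus held the lowest counts, and the astrocyte genes, the tissue of Gfap, the highest. Myh6 and Sftpc had no promoter peak, although 4 of 7 heart genes and 3 of 6 lung genes had one. The lists are short and the order depends on the setting. With scores of at least 100, Sftpb and Sftpd were not counted, and lung no longer lay above pancreas. The median over the 22 peaks was 164.5 tags, against 469 tags over all genes. Mylpf, a myosin light chain of fast muscle, had the most at 1053 tags. Its fold enrichment was only 3.16 and its score of 59.15 was close to the cutoff of 50. Sftpb, a surfactant protein, had 28 tags with a score of 64.9. Cd3d, another chain of the CD3 complex, and Cd3g had no peak at a promoter although Cd3e had one. Of the 46 genes Lck, the T cell tyrosine kinase, was the only one with an ASH2L peak at a promoter, against 7.69% of all genes, and it had none at its curated start. Of the 38 genes of this list with an entry among the RefSeq promoters, 0 were CpG-rich and 12 had a peak, against 38.4% of all promoters that were not CpG-rich.

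Of 28 lineage regulators, the transcription factors that direct the same tissues, 24 had an H3K4me3 promoter peak and 22 had one at the curated start, against 68.4% and 67.9% of all genes. The median over these promoter peaks was 497 tags. ASH2L promoter peaks were found at 0 of the 28, against 7.69% of all genes. In the gene body or the 5 kb upstream, 2 of the 28 had an ASH2L peak, Nfib and Klf5, against 10.5% of all genes. Klf5, an epithelial factor of the lung list, had the most H3K4me3 tags at its promoter with 1099. Hnf4a, Foxa2 and Cebpa of the liver had 67, 438 and 781 tags, whereas Alb and Apoa1 had no promoter peak. Pdx1, Neurod1, Nkx6-1 and Mafa of the endocrine pancreas had between 259 and 1022 tags, beside Ins2 with no peak. In the heart 4 of 4 regulators had a promoter peak, beside Myh6 with none. In the lung 2 of 4 had one, beside Sftpc with none. The other tissues differed, since Cd3e had a promoter peak, like 4 of 4 T cell regulators. Gfap and Ckm also had one, like 3 of 4 regulators in each of their tissues. The 4 regulators without a promoter peak were Nfib, Foxa1, Etv5 and Myf5. Of the 20 regulators with an entry among the RefSeq promoters, 12 were CpG-rich, and 10 of these 12 and 3 of the other 8 had a peak. Over all promoters in the table a peak was present at 7694 of 8103 that were CpG-rich and at 38.4% of the others, so the regulators did not lie above all promoters within either class. With peaks at or above the median fold enrichment the regulators and the differentiation genes lay close, at 21.4% and 19.6%, both below the 36.4% of all genes. The regulators thus stood above the differentiation genes when all peaks were used, and the part of CpG content in this was not tested.

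**Figure D5:**
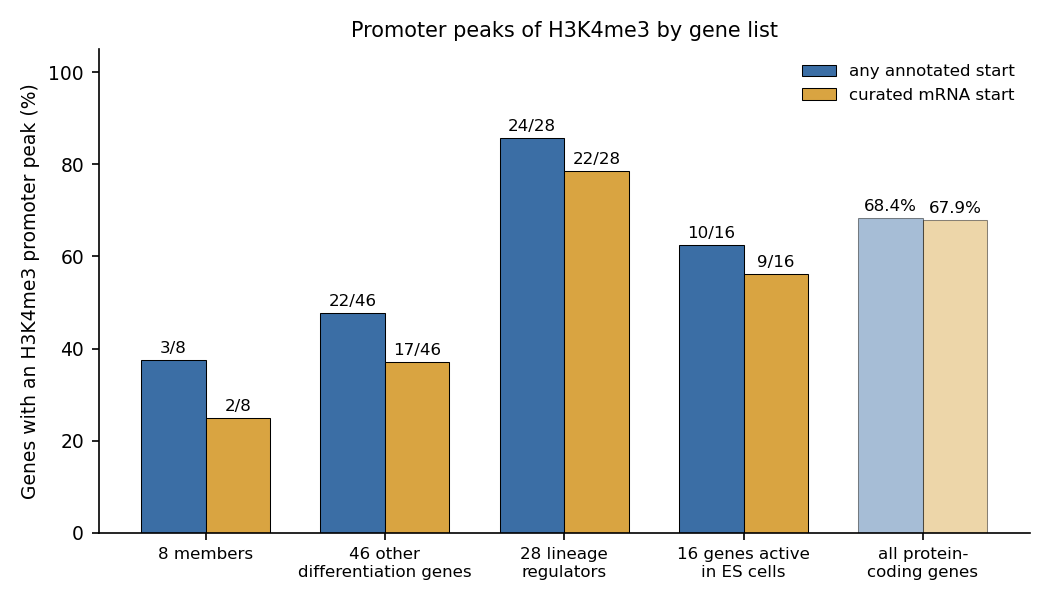
Share of genes (vertical axis, %) with an H3K4me3 promoter peak at any annotated start (blue) and at the curated start (ochre) in 4 gene lists and over all protein-coding genes, with the counts above the bars. The 8 members (3/8 and 2/8) and the 46 other differentiation genes lie below all protein-coding genes and the 28 regulators above, but with 2500 bp on both sides 6 of 8 members were counted against 71.9% of all genes, and with peaks at or above the median fold enrichment 21.4% of the regulators against 36.4%.

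What absence from the list means was limited by the list itself. The H3K4me3 list held 59927 peaks from 27328071 tags, the lowest with 19 tags, and the ASH2L list held 2464 peaks from 25677963 tags, the lowest with 17. Of 16 genes known as active in ES cells, 10 had an H3K4me3 promoter peak in the list as used here, or 62.5%, near the 68.4% of all protein-coding genes. Those without were the pluripotency genes Pou5f1, Nanog, Sox2 and Sall4 and the housekeeping genes Gapdh and Hprt, which are known to be expressed in ES cells. Klf4 had the most tags of this list with 1239, and Esrrb, Zfp42 and Tfcp2l1 had a peak as well, so that the check of the cell type by its markers was met for 4 of 8 markers. The cause of the missing peaks was not tested. A member without a peak is thus a gene at which the list as used here gives no peak, and not a gene shown to lack H3K4me3. Of the 16 genes 0 had an ASH2L promoter peak, against 7.69% of all genes.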

How the data were processed

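CUT&RUN was performed by the authors on 6 samples. Per the study's methods, reads were mapped to mm10 with Bowtie2, duplicates were merged and peaks were called with MACS; the deposited file headers give version 1.4.3, a p-value cutoff of 1e-05 and no control file. The 151 and 142 bp tag sizes of the headers exceed the fragment limit in the methods, so it is not settled which fragments were counted. The deposited tag counts are unscaled counts of tags per peak in the merged libraries, without redundant tags. The headers give redundant rates of 0.31 for H3K4me3 and 0.03 for ASH2L. Fold enrichment, as deposited, is a ratio in which the authors' peak caller set the summit against a local background from the same library. The deposited score is the negative log10 of the p-value on a scale where the cutoff is 50. Parental libraries were not used here.

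Peaks were matched to GENCODE vM21 and RefSeq models on GRCm38.p6. All peaks lay within the 22 chromosome lengths of this build. No statistical test was made, because the merged lists hold no replicate values; shares over all protein-coding genes are given instead. Members and lists were chosen with earlier results of these data known. Named genes were all 8 members, their nearest protein-coding neighbours, and, of each list, the genes that differ from the majority and the one with the most promoter tags; a few further list genes, such as Hnf4a, Pdx1 and Cd3g, were named after their values were seen, and 1 list gene is not reported here by name. Matching was tested on simulated peaks. The software was matplotlib 3.10.9, pysam 0.24.0, scipy 1.17.1, pandas 2.3.3 and numpy 2.4.6 under Python 3.11.15.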

Additional observations from a re-analysis of the deposited data

How the results depend on the processing

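No paired analysis was possible because the duplicates were merged before peak calling, and for the same reason no replicate could be left out. With a window of 2500 bp on both sides of the start, 6 members instead of 3 had an H3K4me3 promoter peak, beside 71.9% of all genes. With only peaks at or above the median fold enrichment, the counts were 1 of 8 members, 9 of 46 differentiation genes, 6 of 28 regulators and 1 of 16 genes active in ES cells, beside 36.4% of all genes. The median distance of the members from the first annotated start to an H3K4me3 peak, 1585.5 bp, became 8201 bp with these peaks, 3022 bp with scores of at least 100 and 3102 bp from curated starts. The last, the counts at coding and curated starts, every alternative for the genes active in ES cells, the RefSeq gene record and the 2500 bp window for ASH2L were chosen after seeing the data. The other H3K4me3 promoter and region counts given here moved by at most 1.5 times, and the ASH2L counts of the members stayed at 0. The ASH2L promoter peak of Lck, 1 of 46 differentiation genes, was not counted (0 of 46) at the most upstream start, with RefSeq models, with scores of at least 100, or at coding or curated starts. From the first annotated start, the fold enrichment threshold moved the nearest peak of Ins2 to 131369 bp, that of Ckm to 15963 bp and that of Gfap to 6532 bp. H3K4me3 peaks with at least 1000 tags had a median fold enrichment of 3.65, below the threshold of 6.46, so that this threshold removes many of the peaks with the most tags.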
